A study of Homo sapiens with 4 samples.

Results

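The 9 genes described here encode the MHC class I antigen presentation machinery, and they were measured by RNA sequencing in the human pancreatic ductal adenocarcinoma line KP4. They are the heavy chain genes HLA-B, HLA-C, HLA-E and HLA-F, the light chain gene B2M, the peptide transporter genes TAP1 and TAP2, the tapasin gene TAPBP and the transactivator gene NLRC5. They were taken by name from the 60651 genes of the stranded read count table, and all 9 were found and all 9 passed the filter on low counts that left 15636 genes for testing. E5 and control KP4 cells were each given FOLFIRINOX or vehicle (DMSO) for 96 h, so that the groups were E5 cells with FOLFIRINOX, E5 cells with vehicle, control cells with FOLFIRINOX and control cells with vehicle. FOLFIRINOX is a combination used against pancreatic cancer, here given as SN-38 (25 nM), into which the body turns irinotecan, with oxaliplatin (5 µM) and an agent the labels write 5-F (10 µM). The series title calls the E5 cells resistant to FOLFIRINOX, whereas the design text mentions 5 rounds of either DMSO or drug, so the earlier exposure of the E5 cells given vehicle is not settled by the labels. All libraries come from 1 cell line, and the labels do not say whether E5 is a clone or a pool. The study asked how the transcriptomes of resistant and control KP4 cells compare with and without the drug.

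MHC class I molecules show peptides from inside the cell to CD8 T cells and to natural killer cells. The heavy chain folds with beta-2 microglobulin in the endoplasmic reticulum, where the TAP1 and TAP2 transporter brings in peptides cut by the proteasome and tapasin bridges the transporter and the empty heavy chain until a peptide binds. NLRC5 is the transactivator of class I genes, which it reaches through the RFX, CREB/ATF and NF-Y factors on their promoters, and interferons raise the pathway through IRF1 and NF-kappaB sites. Loss of class I from the surface is a known route by which pancreatic and other tumours escape T cells.

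The tables hold 3 numbered columns for each of the 4 GEO samples, treated here as 12 libraries in 4 groups of 3. Nothing says that they are separate cultures, so the p-values measure the spread between these libraries, which may be technical. Gene reads per library ranged from 7359034 to 21775030. The ductal epithelium markers KRT8, KRT18, KRT7, KRT19 and EPCAM summed to 766 to 869 CPM (counts scaled to library size) in E5 cells with FOLFIRINOX, 737 to 822 CPM in E5 cells with vehicle, 414 to 457 CPM in control cells with FOLFIRINOX and 193 to 228 CPM in control cells with vehicle. Nearly all of that sum was KRT8 and KRT18, which were higher in E5 cells under each treatment, as were KRT7 and KRT19. EPCAM ran the other way, with 0.444 CPM in E5 cells and 1.20 CPM in control cells under FOLFIRINOX (edgeR adjusted p = 0.00319). Under vehicle EPCAM had 0.291 CPM in E5 cells and 0.598 CPM in control cells, which did not pass (adjusted p = 0.149). The sum of the 5 markers was higher in E5 cells, as the class I genes were, and its part in their results was not tested. The 8 leukocyte markers summed to 0.711 to 1.03 CPM in E5 cells with FOLFIRINOX, 0.401 to 0.935 CPM in E5 cells with vehicle, 10.9 to 14.9 CPM in control cells with FOLFIRINOX and 49.1 to 55.1 CPM in control cells with vehicle. In the counts, nearly all of the sum in control cells was PTPRC, which was lower in E5 than in control cells, where the class I genes were higher. CD3E, which marks T cells, had no reads in any library. CD68, another of these markers, had at most 0.495 CPM in any library. Its highest value in the authors' FPKM, which are scaled for gene length and depth, was 75.1, above that of PTPRC. The cause of this departure from the counts was not tested. In bulk RNA, fewer cells of a type and less RNA per cell cannot be told apart.

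The promoters of these genes carry short elements that the pathway is known for, and they are shown for 4 members that differed in their response: HLA-B and HLA-C, neighbouring heavy chain genes, B2M, which is coded on another chromosome, and TAPBP. RefSeq promoter windows (GRCh38.p14, 250 bases before to 50 bases after the start) matched 7 of the 9 members, and HLA-E and NLRC5 were not matched. The 250 bases before the start are printed 5′ to 3′ on the coding strand, in lower case, with capitals for every match, on either strand, to the ISRE core (GAAA, 2 bases of any kind, GAAA), the NF-kappaB consensus, the CCAAT box that NF-Y binds, the TGACG element that CREB and ATF factors bind, and the GAS element TTCNNNGAA, which gave no match.
HLA-B (chr6:31357180-31357429, minus strand): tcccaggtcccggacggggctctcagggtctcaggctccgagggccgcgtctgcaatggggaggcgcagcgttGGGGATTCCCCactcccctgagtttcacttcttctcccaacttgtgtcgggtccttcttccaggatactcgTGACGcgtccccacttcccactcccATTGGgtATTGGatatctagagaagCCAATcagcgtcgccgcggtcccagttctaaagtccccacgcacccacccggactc
HLA-C (chr6:31272093-31272342, minus strand): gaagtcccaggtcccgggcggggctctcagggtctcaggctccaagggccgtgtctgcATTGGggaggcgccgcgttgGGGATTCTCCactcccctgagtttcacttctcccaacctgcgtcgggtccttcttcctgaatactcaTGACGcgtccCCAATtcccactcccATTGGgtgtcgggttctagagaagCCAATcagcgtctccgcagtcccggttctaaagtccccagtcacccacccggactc
B2M (chr15:44711267-44711516, plus strand): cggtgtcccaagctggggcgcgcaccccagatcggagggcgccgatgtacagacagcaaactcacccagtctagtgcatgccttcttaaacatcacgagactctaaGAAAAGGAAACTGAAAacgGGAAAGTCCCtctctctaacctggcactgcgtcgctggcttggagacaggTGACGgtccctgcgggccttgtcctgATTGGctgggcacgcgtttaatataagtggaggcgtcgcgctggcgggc
TAPBP (chr6:33314079-33314328, minus strand): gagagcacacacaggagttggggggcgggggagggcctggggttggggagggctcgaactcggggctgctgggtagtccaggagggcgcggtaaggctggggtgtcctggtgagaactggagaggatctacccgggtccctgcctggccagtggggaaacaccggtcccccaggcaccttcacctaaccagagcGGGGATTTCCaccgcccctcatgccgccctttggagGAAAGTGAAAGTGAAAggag
HLA-B and HLA-C share a layout, with a kappaB match, a TGACG match and several CCAAT matches in that order towards the start, and HLA-C has a further CCAAT match before the kappaB match. In HLA-B the kappaB matches overlap each other, since the element is near palindromic, and cover positions -177 to -167 before the start. In HLA-C the kappaB match covers positions -172 to -163. B2M has a pair of overlapping ISRE matches from -144 to -129 beside a kappaB match from -125 to -116, and TAPBP has a kappaB match from -56 to -47 and a pair of overlapping ISRE matches from -20 to -5. In the full windows, 5 of the 7 members held an ISRE match, against 3.57% of 35116 RefSeq promoters, and 5 of 7 held a kappaB match, against 5.91%. A CCAAT match was in 5 of 7, against 34.6% of all promoters, a TGACG match in 4 of 7, against 24.6%, and a GAS match in 0 of 7, against 7.66%. Such matches describe letters in these windows, and no binding was measured.

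All 9 genes were higher in E5 cells than in control cells under vehicle, and all 9 were also higher under FOLFIRINOX. The edgeR quasi-likelihood test at an adjusted p of 0.05 called 22.1% of all 15636 genes higher and 22.2% lower in E5 cells under vehicle, where the members' log2 fold changes ran from 0.86 to 3.69 with a median of 1.43, against -0.01 for all genes. Under FOLFIRINOX it called 26.7% of all genes higher and 27.6% lower in E5 cells, and the members ran from 0.34 to 1.77 with a median of 1.06. The drug responses ran in opposite directions in the 2 lines for the 4 heavy chain genes and TAP1. In E5 cells, 1 member was higher with FOLFIRINOX, 7 were lower and 1 did not pass, against 25.0% of all genes higher and 27.3% lower. In control cells, 7 members were higher with FOLFIRINOX and 2 were lower, against 32.6% of all genes higher and 32.7% lower. The members' median was -0.62 in E5 cells and 0.40 in control cells, with all genes at 0.00 in each. The difference of the drug responses, E5 minus control, was negative and past the threshold for 7 members and did not pass for the other 2, against 13.3% of all genes called higher and 12.4% called lower. These comparisons share libraries, so each is given below with its own values.

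**Figure D1:**
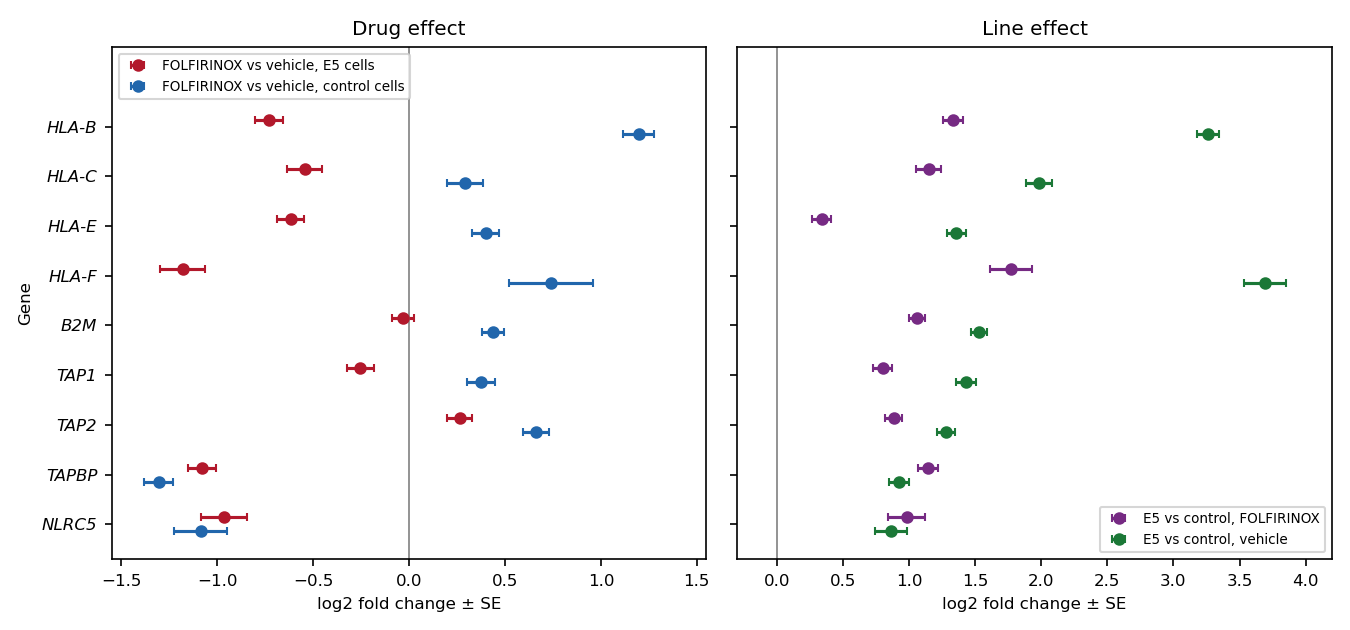
Log2 fold change with its SE (edgeR) for each of the 9 genes on the horizontal axis, for the drug effect in E5 and control cells (left panel) and for E5 against control cells under FOLFIRINOX and vehicle (right panel). On the left the heavy chain genes lie below 0 in E5 cells and above 0 in control cells, with TAPBP and NLRC5 near -1 in each line, and on the right every point lies above 0.

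HLA-B, a classical heavy chain, differed in its drug response between the lines about as widely as HLA-F and more widely than the other 7 genes. It had 187, 189 and 184 CPM in E5 cells with FOLFIRINOX, 320.2, 310.3 and 298 CPM in E5 cells with vehicle, 70.4, 76.1 and 74.8 CPM in control cells with FOLFIRINOX, and 32.0, 28.3 and 36.6 CPM in control cells with vehicle. The 4 groups did not overlap, and E5 cells with vehicle stood highest. With FOLFIRINOX HLA-B fell 1.66-fold in E5 cells (log2 -0.73 ± 0.07 SE, edgeR adjusted p = 3.62e-07), and rose 2.29-fold in control cells (log2 1.20 ± 0.08 SE, adjusted p = 1.44e-09). The difference between these responses was -1.93 ± 0.11 on the log2 scale (edgeR adjusted p = 7.43e-09). Between the lines HLA-B was 2.52-fold higher in E5 cells under FOLFIRINOX (log2 1.33 ± 0.07 SE, edgeR adjusted p = 1.74e-10) and 9.59-fold higher under vehicle (log2 3.26 ± 0.08 SE, adjusted p = 4.83e-15).

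HLA-C, the other classical heavy chain here and also a ligand of killer cell receptors, moved less. Its libraries had 141, 153 and 147 CPM in E5 cells with FOLFIRINOX, 229, 213 and 202 CPM in E5 cells with vehicle, 59.6, 75.4 and 63.0 CPM in control cells with FOLFIRINOX, and 53.2, 48.1 and 61.5 CPM in control cells with vehicle. The control groups overlapped each other, while both E5 groups stood apart from them and from each other. HLA-C fell 1.46-fold with FOLFIRINOX in E5 cells (log2 -0.54 ± 0.09 SE, edgeR adjusted p = 9.23e-05). In control cells it was 1.22-fold higher with the drug (log2 0.29 ± 0.10 SE, adjusted p = 0.0138), a call that was lost without FOLFIRINOX library 2 (log2 0.18, edgeR adjusted p = 0.0966) or without vehicle library 2 (log2 0.20, adjusted p = 0.0998). The difference of responses was -0.84 ± 0.13 (edgeR adjusted p = 0.000252). Between the lines HLA-C was 2.22-fold higher in E5 cells under FOLFIRINOX (edgeR adjusted p = 2.07e-08) and 3.95-fold higher under vehicle (adjusted p = 2.26e-11).

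HLA-E, a nonclassical heavy chain that presents leader peptides of other class I chains to NKG2A and NKG2C receptors, had the smallest gap between the lines under the drug. It had 138, 138 and 131 CPM in E5 cells with FOLFIRINOX, 219.6, 199 and 206 CPM in E5 cells with vehicle, 102, 117 and 101 CPM in control cells with FOLFIRINOX, and 78.1, 77.9 and 87.5 CPM in control cells with vehicle. The 4 groups did not overlap, and the groups given FOLFIRINOX lay between the vehicle groups. With the drug HLA-E fell 1.53-fold in E5 cells (log2 -0.62 ± 0.07 SE, edgeR adjusted p = 1.87e-06) and rose 1.32-fold in control cells (log2 0.40 ± 0.07 SE, adjusted p = 0.000135), a difference of -1.02 ± 0.10 (edgeR adjusted p = 3.08e-06). HLA-E was 1.26-fold higher in E5 cells under FOLFIRINOX (log2 0.34 ± 0.07 SE, edgeR adjusted p = 0.000686), against 2.56-fold higher under vehicle (log2 1.36 ± 0.07 SE, adjusted p = 8.28e-11).

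HLA-F, a nonclassical heavy chain that can reach the surface without peptide, had the largest fold between the lines and the fewest reads. It had 6.19, 6.69 and 7.59 CPM in E5 cells with FOLFIRINOX, 16.3, 14.8 and 15.4 CPM in E5 cells with vehicle, 2.31, 2.03 and 1.78 CPM in control cells with FOLFIRINOX, and 1.67, 1.10 and 1.03 CPM in control cells with vehicle. The groups did not overlap, although the lowest control library with FOLFIRINOX lay close to the highest with vehicle. Those control libraries rest on 18, 41 and 32 reads with FOLFIRINOX and on 15, 23 and 18 reads with vehicle. HLA-F fell 2.27-fold with FOLFIRINOX in E5 cells (log2 -1.18 ± 0.12 SE, edgeR adjusted p = 3.86e-07) and rose 1.67-fold in control cells (log2 0.74 ± 0.22 SE, adjusted p = 0.00689), and the difference was -1.92 ± 0.25 (edgeR adjusted p = 3.74e-05). In E5 cells HLA-F was 3.41-fold higher under FOLFIRINOX (log2 1.77 ± 0.16 SE, edgeR adjusted p = 5.92e-08) and 12.9-fold higher under vehicle (log2 3.69 ± 0.16 SE, adjusted p = 5.63e-12).

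Heavy chain genes resemble each other, so part of their reads may fit more than 1 gene. Over the longest GENCODE v29 coding transcript of each, 2.54% of the 50-base windows of HLA-B, 6.71% of HLA-C, 5.13% of HLA-E and 1.70% of HLA-F occur in another gene's transcripts. At 100 bases the shares were 0 for HLA-B and HLA-F, 0.275% for HLA-C and 0.600% for HLA-E. Heavy chains are also among the most variable human genes, and the reference alleles counted against need not be those of KP4, so levels of HLA-B and HLA-C in particular are uncertain between genes. Of 9 class I pseudogenes, 4 passed the filter, and 0 were higher and 1 lower with FOLFIRINOX in E5 cells, 4 higher and 0 lower with FOLFIRINOX in control cells, 2 higher and 1 lower in E5 cells under FOLFIRINOX, and 3 higher and 0 lower in E5 cells under vehicle. Over all genes, 25.0% were higher and 27.3% lower with FOLFIRINOX in E5 cells, and 32.6% and 32.7% in control cells. For E5 against control cells these shares were 26.7% and 27.6% under FOLFIRINOX, and 22.1% and 22.2% under vehicle. The pseudogene HLA-V, among the 4, had only 1 read in control cells with vehicle. The best covered pseudogene, HLA-H, had 14.6, 13.3 and 14.2 CPM in E5 cells with FOLFIRINOX, 18.6, 19.1 and 18.5 CPM in E5 cells with vehicle, 6.04, 6.69 and 6.24 CPM in control cells with FOLFIRINOX, and 4.11, 4.67 and 5.09 CPM in control cells with vehicle. Its order of groups is that of HLA-B, and how many of its reads come from the coding genes was not tested.

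**Figure D2:**
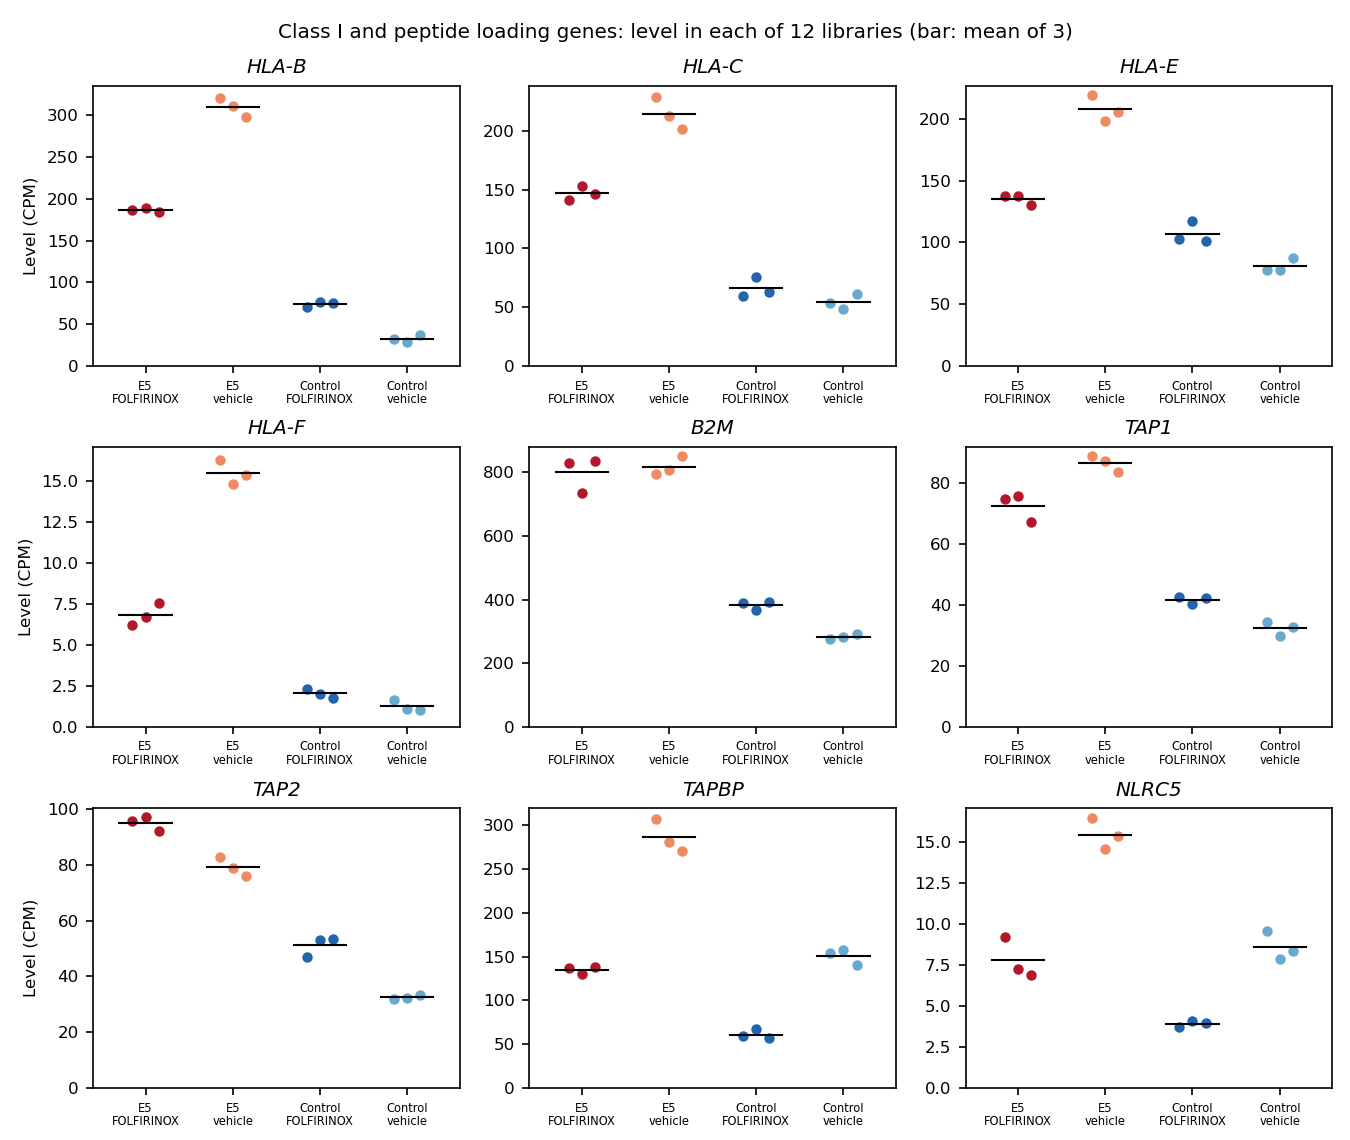
Level in CPM (vertical axes, each from 0) of the 9 genes in each library, with a bar at the mean of 3, for E5 cells with FOLFIRINOX, E5 cells with vehicle, control cells with FOLFIRINOX and control cells with vehicle from left to right. In the top row and for HLA-F the E5 vehicle libraries stand highest, B2M libraries of E5 cells overlap between treatments, TAP2 is highest in E5 cells with FOLFIRINOX, and TAPBP and NLRC5 are lower with the drug than with vehicle in each line.

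B2M, the light chain shared by all class I molecules, differed between the lines but showed no detectable drug change in E5 cells. Its libraries had 829.6, 737 and 835 CPM in E5 cells with FOLFIRINOX, 794, 808 and 851 CPM in E5 cells with vehicle, 391, 367 and 394 CPM in control cells with FOLFIRINOX, and 275, 284 and 292 CPM in control cells with vehicle. The E5 groups overlapped each other and lay above every control library. The drug effect in E5 cells was -0.03 ± 0.06 on the log2 scale and did not pass (edgeR adjusted p = 0.678), while in control cells B2M rose 1.35-fold (log2 0.44 ± 0.06 SE, adjusted p = 5.27e-06). The difference was -0.47 ± 0.08 (edgeR adjusted p = 0.000615). B2M was 2.08-fold higher in E5 cells under FOLFIRINOX (log2 1.06 ± 0.06 SE, edgeR adjusted p = 1.37e-10) and 2.88-fold higher under vehicle (log2 1.53 ± 0.06 SE, adjusted p = 1.44e-12).

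TAP1, a subunit of the peptide transporter, was lower with the drug in E5 cells and higher with it in control cells, by small amounts. It had 74.9, 75.7 and 67.2 CPM in E5 cells with FOLFIRINOX, 88.9, 87.3 and 83.6 CPM in E5 cells with vehicle, 42.6, 40.4 and 42.3 CPM in control cells with FOLFIRINOX, and 34.4, 29.8 and 32.7 CPM in control cells with vehicle. The 4 groups did not overlap. TAP1 was 1.19-fold lower with FOLFIRINOX in E5 cells (log2 -0.25 ± 0.07 SE, edgeR adjusted p = 0.00559) and 1.30-fold higher in control cells (log2 0.37 ± 0.07 SE, adjusted p = 0.000319), a difference of -0.63 ± 0.10 (edgeR adjusted p = 0.000316). It was 1.74-fold higher in E5 cells under FOLFIRINOX (edgeR adjusted p = 6.51e-08) and 2.69-fold higher under vehicle (adjusted p = 4.88e-11). On the authors' FPKM, tested as log2(FPKM + 1) with limma, the fall in E5 cells was -0.19 and did not pass (adjusted p = 0.0530).

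TAP2, its partner in the transporter, was the 1 member of the 9 with a higher count in both lines under the drug. It had 95.7, 97.2 and 92.3 CPM in E5 cells with FOLFIRINOX, 82.8, 79.0 and 76.2 CPM in E5 cells with vehicle, 47.1, 53.2 and 53.4 CPM in control cells with FOLFIRINOX, and 32.0, 32.2 and 33.5 CPM in control cells with vehicle. The groups did not overlap, and E5 cells with FOLFIRINOX stood highest. TAP2 rose 1.20-fold with FOLFIRINOX in E5 cells (log2 0.26 ± 0.06 SE, edgeR adjusted p = 0.00264) and 1.58-fold in control cells (log2 0.66 ± 0.07 SE, adjusted p = 2.87e-07), and the difference of -0.40 ± 0.09 passed (edgeR adjusted p = 0.00562). The rise in E5 cells did not hold on log2(FPKM + 1), where it was 0.06 (limma adjusted p = 0.660), nor did the difference (log2 -0.28, adjusted p = 0.187). Of the 100-base windows of TAP2, 35.2% occur in AL669918.1, an overlapping annotated gene listed with 0 counts, and how many of its reads were left out as ambiguous was not tested. TAP2 was 1.84-fold higher in E5 cells under FOLFIRINOX (edgeR adjusted p = 6.41e-09) and 2.43-fold higher under vehicle (adjusted p = 8.45e-11).

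TAPBP encodes tapasin, and it fell with the drug in both lines. Its libraries had 137, 130.2 and 138 CPM in E5 cells with FOLFIRINOX, 307, 281 and 271 CPM in E5 cells with vehicle, 58.8, 67.4 and 56.5 CPM in control cells with FOLFIRINOX, and 154, 158 and 141 CPM in control cells with vehicle. The 4 groups did not overlap, and both groups with FOLFIRINOX lay below the control cells with vehicle. The fall was 2.12-fold in E5 cells (log2 -1.08 ± 0.07 SE, edgeR adjusted p = 5.10e-09) and 2.47-fold in control cells (log2 -1.30 ± 0.08 SE, adjusted p = 2.75e-10). The difference of 0.22 ± 0.10 did not pass (edgeR adjusted p = 0.129), though it did without control FOLFIRINOX library 2 (log2 0.32, adjusted p = 0.0226). TAPBP was 2.21-fold higher in E5 cells under FOLFIRINOX (edgeR adjusted p = 1.35e-09) and 1.90-fold higher under vehicle (adjusted p = 1.48e-08).

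NLRC5, the class I transactivator, fell with the drug in both lines in the read counts. It had 9.24, 7.25 and 6.88 CPM in E5 cells with FOLFIRINOX, 16.5, 14.6 and 15.4 CPM in E5 cells with vehicle, 3.72, 4.11 and 3.95 CPM in control cells with FOLFIRINOX, and 9.55, 7.87 and 8.34 CPM in control cells with vehicle. E5 cells with FOLFIRINOX overlapped control cells with vehicle, and the other neighbours in the order did not overlap. NLRC5 fell 1.95-fold with FOLFIRINOX in E5 cells (log2 -0.97 ± 0.12 SE, edgeR adjusted p = 4.05e-06) and 2.12-fold in control cells (log2 -1.09 ± 0.14 SE, adjusted p = 3.33e-06), with a difference of 0.12 ± 0.19 that did not pass (edgeR adjusted p = 0.672). It was 1.98-fold higher in E5 cells under FOLFIRINOX (edgeR adjusted p = 1.51e-05) and 1.82-fold higher under vehicle (adjusted p = 1.45e-05). The authors' FPKM did not show the drug effect: NLRC5 averaged 4.92 ± 0.367 FPKM in E5 cells with FOLFIRINOX and 5.67 ± 1.41 FPKM in E5 cells with vehicle, and 3.12 ± 1.30 FPKM in control cells with FOLFIRINOX and 3.13 ± 0.962 FPKM in control cells with vehicle (SD, n = 3 each). On log2(FPKM + 1) the drug effects were -0.15 in E5 cells (limma adjusted p = 0.612) and -0.02 in control cells (adjusted p = 0.938), and the line effect under FOLFIRINOX was 0.57 and no longer passed (adjusted p = 0.0531). The cause of these departures from the counts was not tested.

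Levels per gene length, which allow genes to be compared, placed B2M far above the rest in every group. In FPKM, B2M averaged 893 ± 56.0 in E5 cells with FOLFIRINOX, 875 ± 32.3 in E5 cells with vehicle, 447 ± 12.3 in control cells with FOLFIRINOX and 308 ± 11.1 in control cells with vehicle (SD, n = 3 each). HLA-B came next in both E5 groups, at 109 ± 1.81 FPKM with FOLFIRINOX and 175 ± 4.93 FPKM with vehicle, and it also led the heavy chains in control cells with FOLFIRINOX, at 48.7 ± 5.71 FPKM. In control cells with vehicle HLA-B was at 18.4 ± 1.75 FPKM, below TAPBP at 46.6 ± 2.75, HLA-C at 29.7 ± 3.83 and HLA-E at 29.7 ± 2.14 FPKM. TAP1 was at 30.2 ± 2.12 FPKM and TAP2 at 25.4 ± 1.54 FPKM in E5 cells with FOLFIRINOX, and in control cells with vehicle TAP1 was at 13.3 ± 1.04 FPKM and TAP2 at 12.2 ± 1.96 FPKM. HLA-F and NLRC5 were the lowest of the 9 in all 4 groups, with HLA-F between 1.11 ± 0.320 FPKM in control cells with vehicle and 13.0 ± 1.87 FPKM in E5 cells with vehicle.

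**Figure D3:**
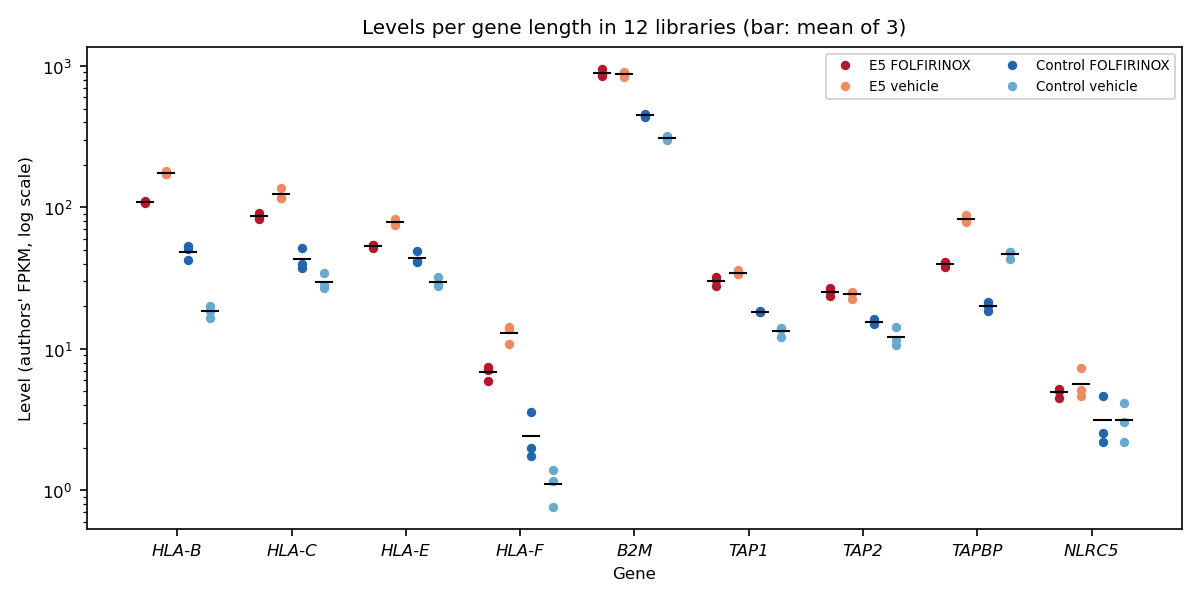
Level in the authors' FPKM (vertical axis, log scale) of the 9 genes in the 12 libraries, with a bar at the mean of 3 in each group. B2M lies between 299 and 954 FPKM in all libraries, HLA-B spans the range between its 4 groups without overlap, and NLRC5 libraries of the drug and vehicle groups overlap within each line.

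Ratios of read counts within a library show which genes moved apart, whatever the scaling between libraries. HLA-B to HLA-C was 1.27 ± 0.0465 in E5 cells with FOLFIRINOX, 1.44 ± 0.0405 in E5 cells with vehicle, 1.13 ± 0.101 in control cells with FOLFIRINOX and 0.595 ± 0.00628 in control cells with vehicle (SD, n = 3 each). This ratio was above 1 in all 9 libraries of the other groups, against 0.589 to 0.601 in control cells with vehicle. B2M to HLA-B was 4.30 ± 0.349 in E5 cells with FOLFIRINOX, 2.65 ± 0.194 in E5 cells with vehicle, 5.21 ± 0.369 in control cells with FOLFIRINOX and 8.87 ± 1.05 in control cells with vehicle, without overlap between groups. TAP1 to TAP2 was 0.764 ± 0.0305 in E5 cells with FOLFIRINOX, 1.09 ± 0.0164 in E5 cells with vehicle, 0.818 ± 0.0767 in control cells with FOLFIRINOX and 0.993 ± 0.0764 in control cells with vehicle. TAP1 to TAPBP was higher with the drug in both lines, at 0.539 ± 0.0469 with FOLFIRINOX against 0.303 ± 0.0118 with vehicle in E5 cells, and at 0.691 ± 0.0802 with FOLFIRINOX against 0.215 ± 0.0228 with vehicle in control cells. With 3 libraries against 3 an exact two-sided permutation test cannot go below p = 0.1, so none of the 32 ratio comparisons could pass.

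**Figure D4:**
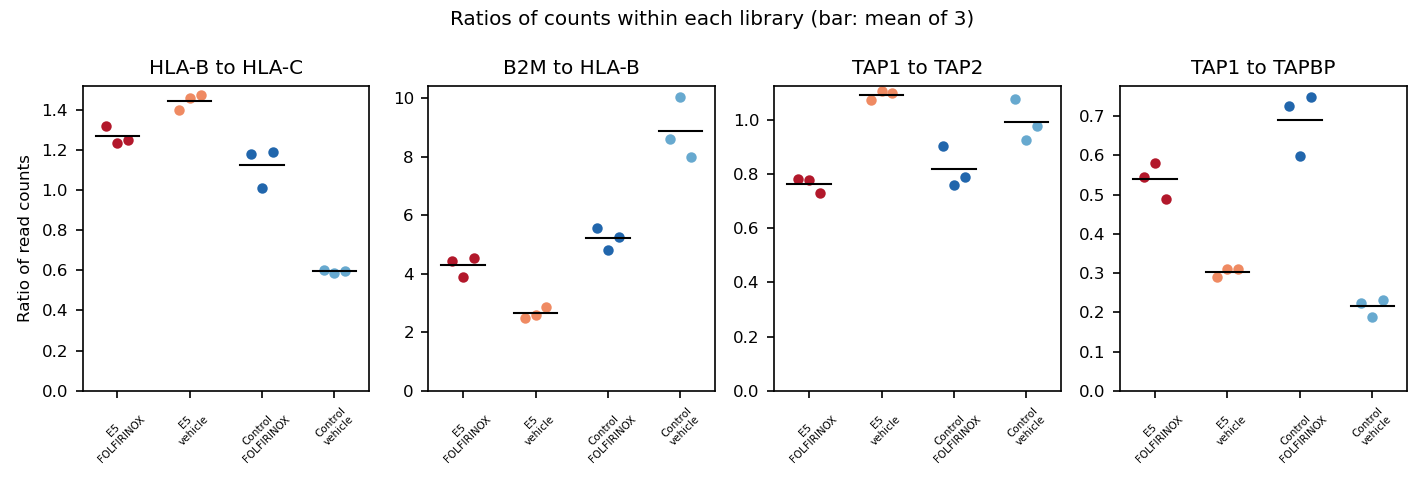
Ratio of read counts within each library (vertical axes, from 0) for 4 pairs of genes, with a bar at the mean of 3 in E5 cells with FOLFIRINOX, E5 cells with vehicle, control cells with FOLFIRINOX and control cells with vehicle. HLA-B to HLA-C is near 0.6 in control cells with vehicle and above 1 elsewhere, and TAP1 to TAPBP is higher with FOLFIRINOX than with vehicle in each line.

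Heavy and light chain were also set against each other. The 4 heavy chain genes summed to 476 ± 9.63 CPM in E5 cells with FOLFIRINOX, 748 ± 33.6 CPM in E5 cells with vehicle, 249 ± 19.3 CPM in control cells with FOLFIRINOX and 169 ± 16.0 CPM in control cells with vehicle (SD, n = 3 each). HLA-B made up 39.2% of that sum in E5 cells with FOLFIRINOX, 41.4% in E5 cells with vehicle, 29.7% in control cells with FOLFIRINOX and 19.1% in control cells with vehicle. HLA-E made up 28.5% of it in E5 cells with FOLFIRINOX, 27.8% in E5 cells with vehicle, 43.0% in control cells with FOLFIRINOX and 48.1% in control cells with vehicle. In counts the sum relative to B2M was 0.597 ± 0.0553 in E5 cells with FOLFIRINOX, 0.916 ± 0.0714 in E5 cells with vehicle, 0.649 ± 0.0762 in control cells with FOLFIRINOX and 0.595 ± 0.0460 in control cells with vehicle. Only the E5 cells with vehicle stood apart, with its 3 libraries at 0.847 to 0.990, and the other 3 groups overlapped. In FPKM the same ratio was 0.287 ± 0.0250 in E5 cells with FOLFIRINOX, 0.446 ± 0.0412 in E5 cells with vehicle, 0.309 ± 0.0360 in control cells with FOLFIRINOX and 0.256 ± 0.0168 in control cells with vehicle. Over all 9 members, 0.155 to 0.164% of gene reads fell on them in E5 cells with FOLFIRINOX, 0.193 to 0.200% in E5 cells with vehicle, 0.0823 to 0.0869% in control cells with FOLFIRINOX and 0.0642 to 0.0673% in control cells with vehicle.

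Genes that supply and trim peptides were followed as a list. The immunoproteasome subunits PSMB8, PSMB9 and PSMB10 and the activator subunits PSME1 and PSME2, which favour class I peptides, were all 5 higher in E5 cells under FOLFIRINOX and all 5 higher under vehicle, with a median log2 fold change of 1.20 under FOLFIRINOX and 1.57 under vehicle, against -0.01 for all genes in each. Of all genes, 26.7% were called higher under FOLFIRINOX and 22.1% under vehicle. Under vehicle PSMB8 was higher by 1.98 ± 0.08 (log2, SE), PSMB10 by 1.88 ± 0.16 and PSMB9 by 1.57 ± 0.08. With the drug 0 of these were higher and 4 lower in E5 cells, where 25.0% of all genes were higher and 27.3% lower, and 1 was higher and 2 lower in control cells, where 32.6% were higher and 32.7% lower. PSMB10 fell by 1.05 ± 0.15 in E5 cells and by 1.24 ± 0.23 in control cells in the counts, but on log2(FPKM + 1) its drug effect was -0.32 in E5 cells and 0.11 in control cells, where it did not pass (limma adjusted p = 0.419). PSMB8 rose by 0.58 ± 0.08 in control cells. The immunoproteasome subunits replace the constitutive catalytic subunits PSMB5, PSMB6 and PSMB7. Of these 3, 1 was higher and 0 lower in E5 cells under FOLFIRINOX, against 26.7% and 27.6% of all genes. Under vehicle 0 were higher and 2 lower, against 22.1% and 22.2%. With the drug 1 was higher and 1 lower in E5 cells, against 25.0% and 27.3% of all genes. In control cells 0 were higher and 2 lower with it, against 32.6% and 32.7%. Annotated spans of PSMB9 and TAP1 overlap, and their counts were taken with strand.

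The loading and trimming list held 8 tested genes: under FOLFIRINOX 4 of them were higher in E5 cells and 1 was lower, and under vehicle 5 were higher and 0 lower. The shares of all genes were 26.7% higher and 27.6% lower under FOLFIRINOX, and 22.1% higher and 22.2% lower under vehicle. Under vehicle TAPBPL, the tapasin-related peptide editor, was higher in E5 cells by 2.46 ± 0.12 (log2, SE), as were the aminopeptidases that trim peptides in the endoplasmic reticulum, ERAP2 by 1.19 ± 0.09 and ERAP1 by 0.94 ± 0.06. With FOLFIRINOX, 1 of the 8 was higher and 5 lower in E5 cells, against 25.0% and 27.3% of all genes. In control cells 3 were higher and 3 lower, near the 32.6% and 32.7% of all genes. The list's median log2 fold change with the drug was -0.34 in E5 cells and -0.08 in control cells, against 0.00 for all genes in each. TAPBPL fell by 0.70 ± 0.10 in E5 cells and rose by 0.52 ± 0.14 in control cells, a difference of -1.22 ± 0.17 (edgeR adjusted p = 7.71e-05), where TAPBP itself fell in each line. ERAP2 fell by 0.52 ± 0.08 in E5 cells and by 0.96 ± 0.09 in control cells.

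Factors that act at class I promoters moved in both directions. Of 13, 4 were higher and 4 lower in E5 cells under FOLFIRINOX, near the 26.7% and 27.6% of all genes, and 6 were higher and 2 lower under vehicle, against 22.1% and 22.2% of all genes. Their median log2 fold change was 0.06 under FOLFIRINOX and 0.24 under vehicle. IRF1, which carries interferon signals to these promoters, was higher in E5 cells by 1.56 ± 0.07 under FOLFIRINOX and by 1.62 ± 0.07 under vehicle (log2, SE). With FOLFIRINOX, 1 of 13 was higher and 3 lower in E5 cells, against 25.0% and 27.3% of all genes, and 7 were higher and 3 lower in control cells, against 32.6% and 32.7%. ATF1, a factor of the CREB/ATF family, rose by 0.70 ± 0.10 in E5 cells and by 0.70 ± 0.10 in control cells. RFXANK, a subunit of the RFX complex to which NLRC5 docks, fell by 0.98 ± 0.12 in E5 cells and by 1.20 ± 0.13 in control cells. The RFX subunit RFX5 fell by 0.28 ± 0.06 in E5 cells, and its difference of responses was -0.48 ± 0.09 (edgeR adjusted p = 0.000671).

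Interferon receptors and their signalling genes were higher in E5 cells for 7 of 9 under FOLFIRINOX, with 1 lower, and for 7 of 9 under vehicle, with 0 lower. Over all genes 26.7% were higher and 27.6% lower under FOLFIRINOX, and 22.1% higher and 22.2% lower under vehicle, and the list's median log2 fold change was 0.40 under FOLFIRINOX and 0.33 under vehicle. IRF9, which acts with STAT2 in the type I interferon response, was higher in E5 cells by 0.86 ± 0.22 under FOLFIRINOX and by 1.01 ± 0.22 under vehicle (log2, SE). IRF9 rests on few reads per group, 113 in E5 cells with FOLFIRINOX and 93 with vehicle. Control cells had 58 with FOLFIRINOX and 63 with vehicle. The highest IRF9 value in any library was 3.31 CPM in the counts but 39.4 in the authors' FPKM, and the cause was not tested. With FOLFIRINOX, 2 of 9 were higher and 5 lower in E5 cells, against 25.0% and 27.3% of all genes, and 2 were higher and 4 lower in control cells, against 32.6% and 32.7%. STAT2 fell by 1.16 ± 0.07 in E5 cells and by 1.05 ± 0.08 in control cells, whereas the interferon gamma receptor gene IFNGR1 rose by 0.67 ± 0.08 in E5 cells and by 0.60 ± 0.08 in control cells.

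Other class I-like genes and genes of class I turnover moved in both directions. The class I-like list held 8 tested genes: under FOLFIRINOX 4 of them were higher in E5 cells and 3 were lower, and under vehicle 6 were higher and 1 was lower, with all genes at the shares given for the other lists. MR1, which presents vitamin B metabolites to MAIT cells, had 27.5 ± 1.15 CPM in E5 cells with FOLFIRINOX, 22.4 ± 1.37 CPM in E5 cells with vehicle, 17.2 ± 0.675 CPM in control cells with FOLFIRINOX and 4.55 ± 0.322 CPM in control cells with vehicle (SD, n = 3 each). Its drug response differed between the lines by -1.60 ± 0.13 (edgeR adjusted p = 3.22e-07). HFE, a class I-like regulator of iron uptake, had 12.9 ± 1.22 CPM in E5 cells with FOLFIRINOX, 46.9 ± 3.58 CPM in E5 cells with vehicle, 3.95 ± 0.585 CPM in control cells with FOLFIRINOX and 29.2 ± 1.92 CPM in control cells with vehicle. With the drug it fell by 1.86 ± 0.10 in E5 cells and fell by 2.93 ± 0.12 in control cells (log2, SE), and its difference was of the opposite sign to that of MR1, at 1.06 ± 0.16 (edgeR adjusted p = 0.000125), a call lost on log2(FPKM + 1), where it was 0.27. With FOLFIRINOX, 1 of the 8 was higher and 5 lower in E5 cells, with a median log2 fold change of -0.65. In control cells 4 were higher and 2 lower, with a median of 0.15. Over all genes, 25.0% were higher and 27.3% lower with the drug in E5 cells, and 32.6% and 32.7% in control cells. Of 5 turnover genes under FOLFIRINOX, E5 cells had 2 at a higher and 1 at a lower level, against 26.7% and 27.6% of all genes. Under vehicle 2 were higher and 2 lower, against 22.1% and 22.2% of all genes. With the drug 0 of these were higher and 3 lower in E5 cells, and 0 were higher and 2 lower in control cells, led by the ubiquitin ligase gene WWP2, which fell by 0.73 ± 0.10 in E5 cells and by 1.10 ± 0.10 in control cells.

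In the genome, 7 of the 9 members lie in the MHC on chromosome 6, while B2M is on chromosome 15 (44711487 to 44718851) and NLRC5 on chromosome 16 (56989485 to 57083531). In GRCh38 coordinates as deposited, HLA-F spans 29722775 to 29738528, HLA-E 30489509 to 30494194, HLA-C 31268749 to 31272130, HLA-B 31353872 to 31357188, TAP2 32821833 to 32838770, TAP1 32845209 to 32853816 and TAPBP 33299694 to 33314387. Between the start of HLA-F and the end of TAPBP, 3.59 Mb, 89 other protein-coding genes were tested. Under FOLFIRINOX, 35 of these neighbours were higher in E5 cells and 11 lower, which is 39.3% and 12.4%, and 42 were higher and 5 lower under vehicle, which is 47.2% and 5.62%. The shares over all genes were 26.7% and 27.6% under FOLFIRINOX and 22.1% and 22.2% under vehicle. All 7 members there were higher in each. With FOLFIRINOX, 14 neighbours (15.7%) were higher and 41 (46.1%) lower in E5 cells, against 25.0% and 27.3% of all genes, and 30 (33.7%) were higher and 25 (28.1%) lower in control cells, near the 32.6% and 32.7% of all genes. Above a log2 fold change of 4 under vehicle lay 9 neighbours, all MHC class II genes, of which HLA-DRA was higher in E5 cells by 6.71, and they were singled out after their values were seen.

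**Figure D5:**
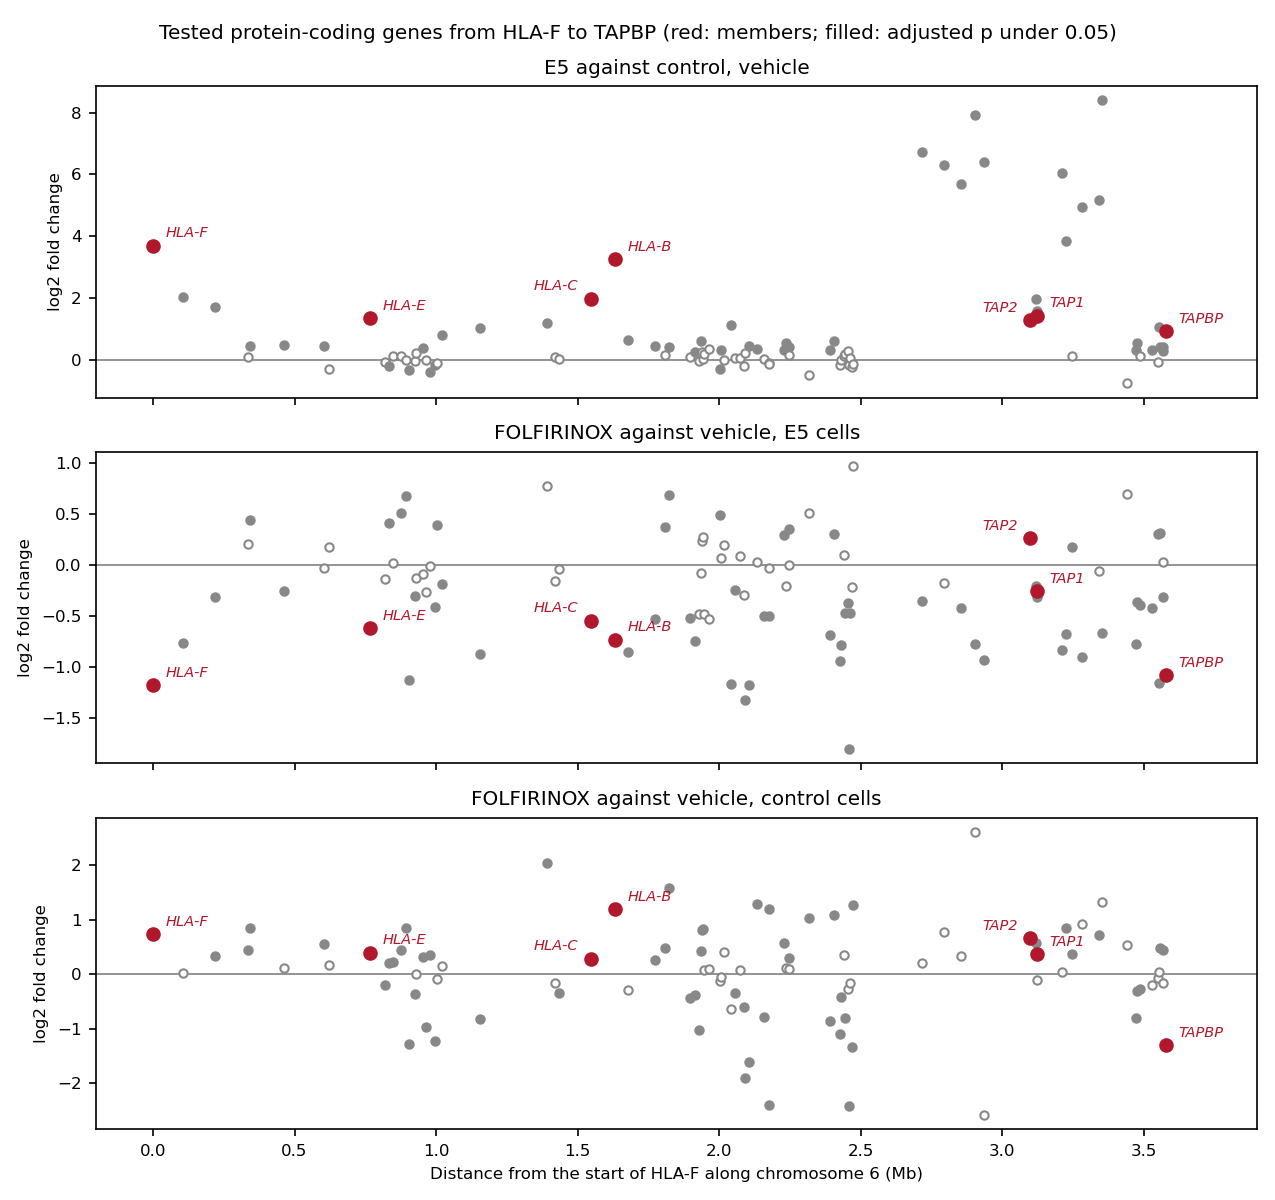
Log2 fold change (vertical axes) of the tested protein-coding genes by distance in Mb from the start of HLA-F, for E5 against control cells under vehicle, and for FOLFIRINOX against vehicle in E5 cells and in control cells from top to bottom; members are red and labelled, and filled points have an adjusted p under 0.05. The 7 members lie above 0 in the top panel, among neighbours on either side of 0, and 6 of the 7 lie below 0 in E5 cells with the drug against 1 of 7 in control cells.

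Members differed in how alike their patterns were over the 12 libraries, measured as the root mean square (RMS) difference of centred log2(CPM + 0.5). The closest pairs were B2M and TAP1 at 0.159, TAPBP and NLRC5 at 0.181, and B2M and TAP2 at 0.188, and the most distant was HLA-B and TAPBP at 1.10. Over all tested protein-coding genes outside the 9, HLA-B was nearest to SERPINA1 (0.164) and the keratin gene KRT8 (0.179), while its own range over the libraries was 3.48. KRT8 is also the epithelial marker that was 2.91 ± 0.09 higher (log2, SE) in E5 cells under vehicle. HLA-C was nearest to TIMP1 (0.112), and HLA-E to TRIM21 (0.115) and PARP12 (0.152). HLA-F was nearest to HLA-DMA (0.225) and TRIM38 (0.270). B2M was nearest to ARNTL (0.0741) and TNFRSF11A (0.0833), TAP1 to ALPK2 (0.0758) and ALPK1 (0.106), and TAP2 to SERTAD2 (0.0670) and EPS8 (0.116). TAPBP was nearest to LPCAT3 (0.0945) and H6PD (0.119), and NLRC5 to GSDMD (0.118) and ENDOD1 (0.131). These distances describe likeness in level over libraries of 4 groups only.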

How the data were processed

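RNA from KP4 cells was isolated with an RNeasy kit and made into libraries with a KAPA mRNA kit, per the labels' protocols. Trimmomatic, STAR 2.5.1b and build GRCh38 are named in the submitters' processing notes. The deposited tables hold unscaled stranded read counts per gene, FPKM values (scaled by the authors for gene length and depth) and the authors' regularised log2 counts (rlog). No source used here names the program behind the FPKM and rlog values. Each of the 12 columns was tied to its group by its name, and 0 columns of samples were left unused. Gene reads per library set the precision, and reads outside genes were kept out of library sizes: multimapping reads were 10.79 to 12.84% and ambiguous reads 2.86 to 3.20%.

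Counts were tested with edgeR 4.0.16 in R 4.3.3 (TMM, filterByExpr, quasi-likelihood test, group means over all 12 libraries, Benjamini-Hochberg adjustment over 15636 genes at 0.05), and the biological coefficient of variation was 7.37%. The SE of a log2 fold change is its unshrunk size divided by the root of the F statistic. CPM used TMM-scaled library sizes. The procedure was tested on simulated counts. Alternatives were DESeq2 1.42.0, limma 3.58.1 on FPKM and rlog, other scalings, no filter, a block and leaving out each library. Within a group, pairs of libraries differed by 1.42 to 13.0 times the counting variance, so none was counted as a copy.

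The members and all lists were chosen with earlier results of these data known. All 9 members are named in every comparison. Of each list, up to 3 genes with the largest change in that comparison are named, and for likeness the nearest 2 protein-coding genes of each member. Some genes that these rules name are not reported here. The list of fibroblast markers summed to 9.03 to 10.8 CPM in E5 cells with FOLFIRINOX, 16.1 to 17.4 CPM in E5 cells with vehicle, 3.73 to 3.91 CPM in control cells with FOLFIRINOX and 5.44 to 5.86 CPM in control cells with vehicle, and that of endothelium to at most 7.14 CPM in any library.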

Additional observations from a re-analysis of the deposited data

Results flagged for a closer look

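The drug response differed between E5 and control cells for 7 of the 9 genes, by the test of that difference itself (edgeR, E5 minus control, log2). The difference was -1.93 for HLA-B, -1.92 for HLA-F, -1.02 for HLA-E and -0.84 for HLA-C. It was -0.63 for TAP1, -0.47 for B2M and -0.40 for TAP2, and the edgeR adjusted p-values of the 7 ran from 7.43e-09 to 0.00562. The signs of the separate responses were opposite in the 2 lines for the 4 heavy chain genes and TAP1, TAP2 was higher with the drug in both, and B2M passed in control cells only. Of all tested genes, 12.4% had a difference called lower.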

How the results depend on the processing

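Over 21 alternatives to the settings used, 921 of 936 recomputed member results kept their side of the threshold, 14 lost the call and 1 gained it, and 0 called results changed sign. Among values that did not pass, the sign changed under some alternatives for the drug effect on B2M in E5 cells (log2 -0.06 to 0.04) and for the difference of NLRC5 (-0.14 to 0.22). Of the 14, 12 came from limma on the authors' FPKM: the drug effects of NLRC5 in both lines, its line effect under FOLFIRINOX (log2 0.57 with FPKM + 1 and 0.71 with FPKM + 0.1), the drug effects of TAP1 and TAP2 in E5 cells, and the difference for TAP2. This brought the members called for the drug in E5 cells to 5 of 9 under each pseudocount, against 8 on counts, and the cause was not tested. The remaining 2 were HLA-C in control cells without a library numbered 2, and the gain was TAPBP without control FOLFIRINOX library 2. On FPKM, PSMB10 turned round for the drug in control cells (log2 0.11 and 0.12 with pseudocounts of 1 and 0.1), as did ITGAM for E5 against control cells under FOLFIRINOX (log2 0.0203 and 0.0858), and the cause was not tested.

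Scaling by library totals moved the median of all genes by 0.14 for the drug in control cells, relative to which no called member changed sign. It put 60.8% of the calls there on the higher side, against 49.9%, and 39.6% of those for the difference, against 51.8%. On log2(FPKM + 1) these shares were 66.9% and 26.5%, and for E5 against control cells under FOLFIRINOX 35.4% against 49.1%. Without a filter on low counts the share for the difference was 64.0%. Counts of called genes moved by over 1.5 times on log2(FPKM + 1) and log2(FPKM + 0.1): 2949 and 2943 genes lower with the drug in control cells, against 5109, 2837 and 2775 lower with the drug in E5 cells, against 4265, 2638 and 2605 higher in E5 cells under FOLFIRINOX, against 4170, and 814 and 751 higher for the difference, against 2080.

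With the column number as a replicate block, 4973 genes were higher and 5015 lower with the drug in control cells, and 0 member calls changed. Correlations of same-numbered libraries' deviations ran from -0.28 to 0.20 over 18 pairs, with 5 over 0.1, so no pairing by number was seen. Deviations from means of 3 libraries depend on each other, so these correlations cannot settle whether the numbers mark a shared culture or batch. Depth limits HLA-F and NLRC5 most, since their control libraries hold few reads.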
